A study of Mus musculus with 20 samples.

Results

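Histone genes were taken from polyadenylated-RNA sequencing of mouse kidney and liver after 3 weeks of JQ1, an inhibitor of the bromodomains of BET proteins. A gene was included if its symbol named a core or linker histone (the H1f, H2a, H2b, H3c or H3f, and H4c or H4f series) and at least 1 of its transcripts was annotated as protein-coding. This rule gave 99 genes of the 55642 in the files. Of these, 67 were replication-dependent genes of the histone clusters (6 of H1, 18 of H2A, 18 of H2B, 12 of H3 and 13 of H4) and 31 were variants (5 of H1, 21 of H2A, 2 of H2B and 3 of H3). One further gene, H2bu1-ps, was put in neither class and had no read in any library. RefSeq placed 96 of the genes, 54 of them on chromosome 13, 15 on X, 11 on chromosome 3 and 6 on chromosome 11.

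Histones are the proteins on which DNA is wound. Cells make most core and linker histones from clustered genes that are switched on in S phase, and the messenger RNAs of these genes normally end in a short stem-loop rather than a poly(A) tail, so a poly(A)-selected library records them mainly where a tailed form exists. Many variant genes lie outside the clusters, have ordinary poly(A) tails and are expressed through the cell cycle. These are also made in resting cells, such as most of those in adult kidney and liver. Of the 31 variants here, 14 had no read in either organ and 2 held the stem-loop. The poly(A) selection means that the levels of cluster genes given here are levels of what was captured, not of all the RNA made.

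The animals were adult males of the inbred strain DBA/2J with no engineered allele named in the labels. JQ1 was injected into the peritoneum once a day at 50 mg/kg for 3 weeks, and the controls received the vehicle, a dilution of DMSO in hydroxypropyl-β-cyclodextrin, on the same schedule. The treatment groups were 10 weeks old when dosing stopped and their organs were collected. The recovery groups were left undosed for 6 weeks more and were 16 weeks old. Kidney and liver each gave 3 JQ1 treatment libraries, 3 JQ1 recovery libraries, 3 vehicle libraries of the treatment time and 1 of the recovery time. The 4 vehicle libraries together formed the control. The recovery animals were therefore older than 3 of their 4 controls.

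Libraries held 13952510 to 26895318 reads assigned to genes in kidney and 11968500 to 17529910 in liver, of which histone genes took 0.124% to 0.164% and 0.0731% to 0.116%. At least 1 read was found for 68 of the 99 genes in kidney and for 65 in liver. The marker genes of both organs were high in their own organ, but 2 liver libraries, JQ1 recovery 2 and 3, also held kidney RNA. The 10 kidney markers summed to 4506 and 2647 CPM there (read counts scaled to library size), against 2.16 to 25.2 CPM in the other 8 liver libraries. The 25.2 CPM was JQ1 recovery 1, where liver control libraries held 2.16 to 5.21 CPM and liver treatment libraries 2.22 to 2.95 CPM. The number of histone genes called in each liver comparison is given with and without JQ1 recovery 2 and 3. Kidney JQ1 treatment 1 stood apart in its macrophage markers, which summed to 512 CPM against 70.1 to 123 CPM in the other 9 kidney libraries.

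The highest histone levels per transcript length were those of H2bc4, a cluster H2B gene, in both organs. Its mean over all 10 libraries was 144 ± 14.5 TPM (SD; a scale corrected for transcript length and library size) in kidney and 92.9 ± 27.8 TPM in liver. Next in kidney came H2az1, which encodes an H2A variant found around transcription start sites, at 138 ± 16.9 TPM, and the pair of genes for the replacement H3 histone, H3f3b at 116 ± 6.35 TPM and H3f3a at 83.6 ± 4.68 TPM. H2bc4 and H2az1 in kidney differed by less than either SD. In liver H2az1 stood at 67.1 ± 16.0 TPM, H3f3a at 43.9 ± 10.6 TPM and H3f3b at 42.3 ± 7.86 TPM, the last pair again within their SDs. H1f0, the linker histone of resting cells, was at 46.0 ± 5.49 TPM in kidney and 17.8 ± 2.97 TPM in liver, and H2az2, the second gene for this H2A variant, at 44.4 ± 3.96 TPM and 23.3 ± 3.92 TPM.

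The cluster genes were carried by few members. H2bc4, the H4 gene H4c8 and the H2A gene H2ac19 together held 65.7% of the summed TPM of the 67 replication-dependent genes in kidney and 71.8% in liver. H4c8 and H2ac19 also varied most among the genes of highest level. H4c8 ran from 15.1 to 226 TPM over the 10 kidney libraries and from 1.03 to 82.3 TPM over those of liver, and H2ac19 from 21.5 to 96.6 TPM and from 0 to 74.6 TPM. Their transcripts have 470 and 528 bases, for which TPM rests strongly on the fixed 250 bases that the authors' quantification took off the length, so single genes are compared between groups in CPM.

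**Figure D1:**
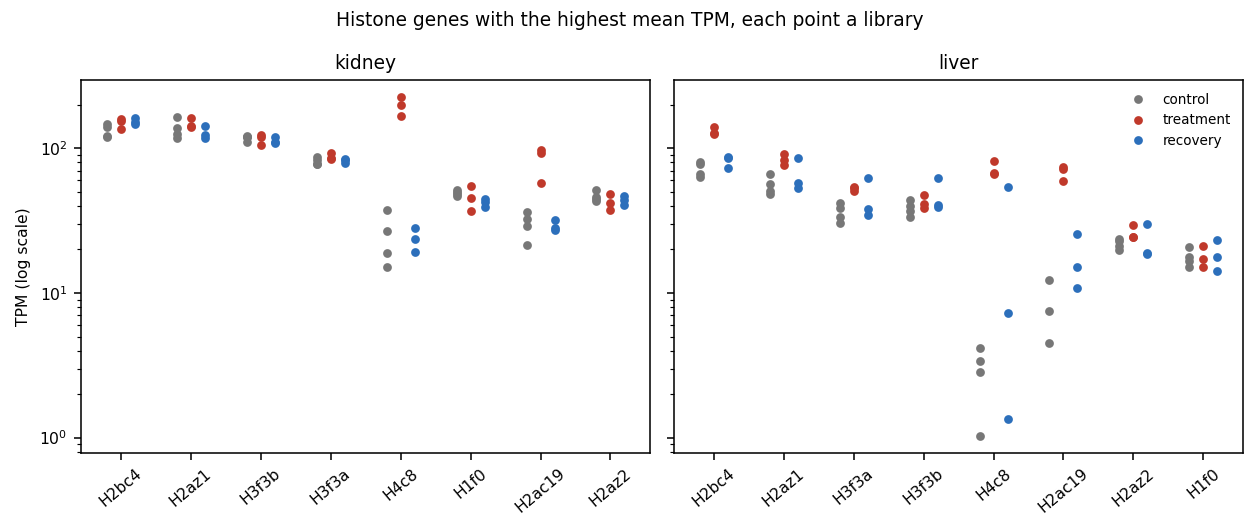
Levels in TPM on a log axis of the 8 histone genes with the highest mean in kidney (left) and liver (right), each point a library, coloured by group. H4c8 and H2ac19 spread widest, with the JQ1 treatment libraries on top, while H2az2 and H1f0 stay within a narrow band; 1 liver control library in which H2ac19 was at 0 cannot be shown on this axis.

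The annotated ends of the transcripts bear on what poly(A) selection captures. In the transcript with most reads for each gene, the stem-loop of histone messenger RNA, searched with some positions free, was found in 44 of the 67 replication-dependent genes and in 2 of the 31 variants, against 0.96% of all 141767 transcripts of GENCODE M21. In 22 of the 44 the annotated transcript ran on for more than 100 bases past the stem-loop. A poly(A) signal (AATAAA or ATTAAA) lay in the last 50 bases of 16 replication-dependent transcripts and of 22 variant transcripts, and those 22 variants took 100% of the variant reads to 1 decimal. Transcripts that ended within 100 bases of their stem-loop took 15.9% of the replication-dependent reads in kidney and 14% in liver. H4c8 was the only gene in this class with a stem-loop this close to the end and a poly(A) signal as well.

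The stem-loop regions below are those of 4 cluster genes that recur in the results, read from the GENCODE M21 transcripts, with the stem-loop in capitals and 5 bases on either side in lower case.
H4c8: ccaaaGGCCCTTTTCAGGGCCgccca
H2ac19: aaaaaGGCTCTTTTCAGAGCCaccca
H1f2: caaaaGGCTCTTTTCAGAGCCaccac
H4c9: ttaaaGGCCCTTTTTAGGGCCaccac
The transcript of H4c8 ended 46 bases after the stem-loop, with a poly(A) signal starting 32 bases from its end. That of H2ac19 ended 35 bases after it, with no poly(A) signal in the last 50 bases. Those of H1f2 and H4c9 ran on for 840 and 330 bases and had a poly(A) signal 26 and 21 bases from the end. The annotated transcript of H2bc4, the most abundant, had neither a stem-loop of this pattern nor a poly(A) signal in its last 50 bases.

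JQ1 treatment was compared with vehicle in each organ to ask how histone genes stood at the end of dosing. In kidney, H4c8 had the largest log2 fold change of the histone genes tested, H2ac19 and H2bc4 rose too, and H2aw, a cluster H2A gene, fell. In liver, H2bc4, H1f2 (a cluster linker histone) and H2az1 rose, and none fell. Of the 99 genes, 27 in kidney and 23 in liver had enough reads to be tested. In kidney 3 rose and 1 fell at an adjusted p under 0.05 (edgeR quasi-likelihood test, Benjamini-Hochberg over all genes tested), where 4.13% of all 17158 genes tested were called, 1.4% higher and 2.73% lower. In liver 3 rose, where 0.495% of 14559 genes were called. The median log2 fold change over the histone genes tested was 0.25 in kidney, with 21 of 27 above 0, against a median of -0.01 over all genes. In liver it was 0.50, with 20 of 23 above 0, against 0.00 over all genes. The kidney count dropped to 2 without JQ1 treatment 3 or vehicle treatment 2. The liver count dropped to 0 without JQ1 treatment 2, JQ1 treatment 3 or vehicle treatment 1, and to 1 without vehicle treatment 2 or 3. It rose to 6 with DESeq2 and to 7 with the compared groups alone. The shares of all genes given above belong to the edgeR fits over all libraries and not to these settings.

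H4c8 is 1 of several genes for the same H4 protein. In kidney it measured 56.2, 71.1 and 64.5 CPM in the 3 JQ1 treatment libraries and 11.04, 5.69, 7.85 and 4.46 CPM in the 4 controls. After recovery it measured 7.14, 8.16 and 5.89 CPM. The treatment libraries lay far above both other groups, which overlapped each other. The log2 fold change against control was 3.15 ± 0.25 (SE, adjusted p = 0.00012), and it was called under all 15 alternative settings, at 2.98 to 3.41. In liver H4c8 measured 26.4, 31.6 and 39.4 CPM in the treatment libraries and 1.67, 1.23, 0.54 and 2.03 CPM in the controls, again without overlap.

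The liver recovery libraries of H4c8 did not form a group, at 0.621, 18.8 and 3.42 CPM. The 18.8 CPM came from JQ1 recovery 2, a library with kidney RNA, although the kidney recovery libraries themselves reached at most 8.16 CPM. In the fit over all 10 liver libraries the log2 fold change of 4.56 ± 0.96 for treatment against control had an adjusted p of 0.14. With the 2 liver libraries that held kidney RNA left out, a setting chosen after seeing the data, it was 4.55 ± 0.28 with an adjusted p of 8.3e-06. The difference between the organs in this response was -1.41 ± 0.94 on the log2 scale (adjusted p = 0.81). In H4c8, 168 of its 396 windows of read length (75 bases) also occur in transcripts of other genes, so some reads may belong to another H4 gene.

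**Figure D2:**
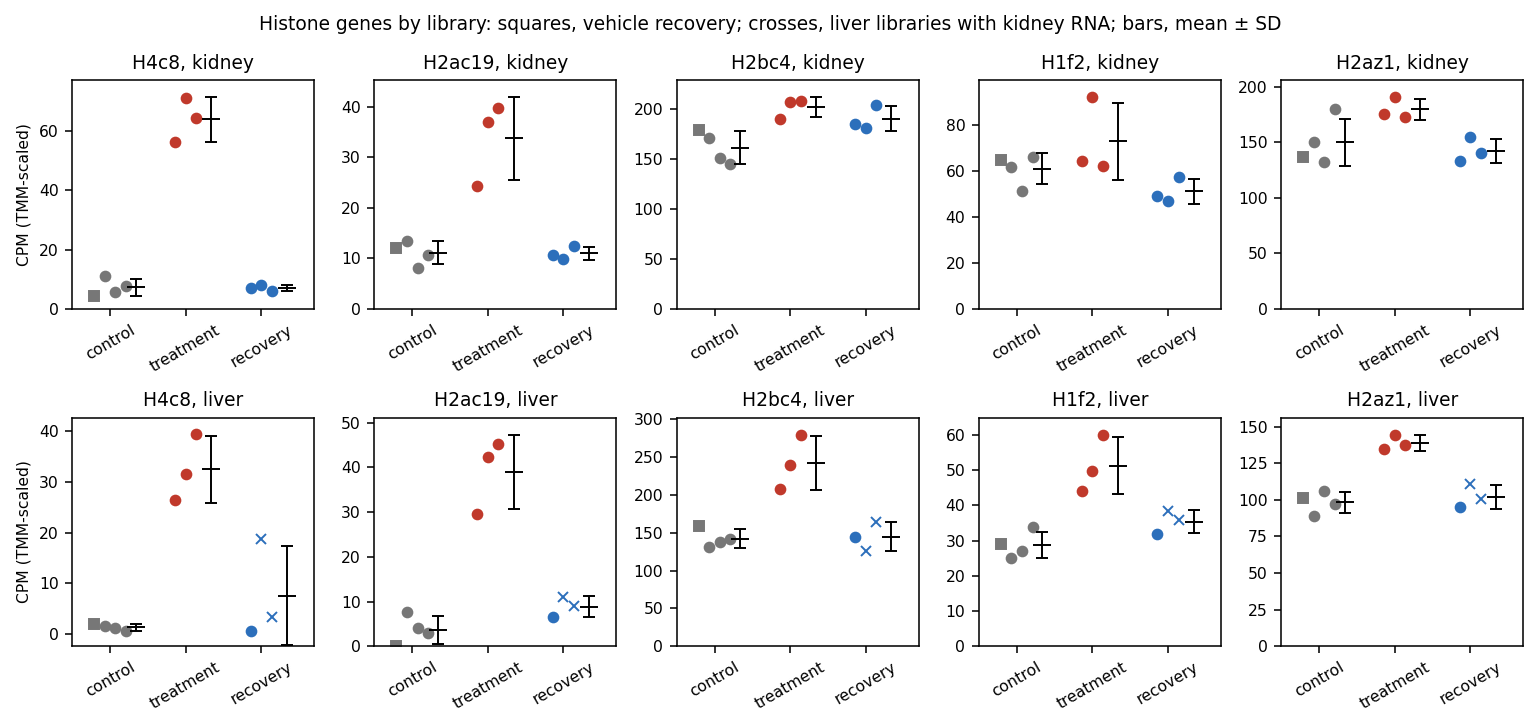
CPM of H4c8, H2ac19, H2bc4, H1f2 and H2az1 in every library of kidney (top) and liver (bottom) by group, with the group mean ± SD; squares mark the vehicle recovery library and crosses the liver libraries with kidney RNA. The 3 treatment libraries lie above all 4 controls for H4c8, H2ac19 and H2bc4 in both organs, and for H1f2 and H2az1 in liver.

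H2ac19 encodes a canonical H2A. In kidney it measured 24.4, 37.1 and 39.7 CPM in the treatment libraries and 13.4, 8.13, 10.7 and 12.1 CPM in the controls. After recovery it measured 10.7, 9.98 and 12.4 CPM, within the range of the controls. The log2 fold change against control was 1.61 ± 0.18 (adjusted p = 0.00012), called under all 14 alternatives that kept it as a gene of its own. In liver the treatment libraries held 29.6, 42.3 and 45.2 CPM and the controls 7.75, 4.05, 2.94 and 0 CPM. The groups did not overlap, but the log2 fold change of 3.44 ± 0.79 was not called (adjusted p = 0.16). The 0 CPM stood in vehicle recovery 1, where its near copy H2ac18 had 10.3 CPM against 0.24 to 1.14 CPM in the other 3 controls.

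These reads cannot be given to H2ac19 alone. All of its 454 windows of 75 bases occur in both H2ac18 and Gm20634, a gene annotated on the same strand across H2ac18 and the H3 gene H3c14. In kidney, H2ac18 measured 14.5, 16.9 and 0 CPM in treatment and 0, 5.75, 3.99 and 7.56 CPM in control, so its libraries scattered within both groups. Gm20634 measured 87.5, 115 and 112 CPM in treatment against 34.9 to 47.6 CPM in control in kidney, and 126, 145 and 160.4 CPM against 22.7 to 38.6 CPM in liver. It rose by 1.36 ± 0.11 in kidney (adjusted p = 5.6e-06) and by 2.17 ± 0.17 in liver (adjusted p = 8.6e-05), on the log2 scale.

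Summed over the 5 genes that share most of these windows (Gm20634, H2ac18, H2ac19, H3c14 and H3c15), the division of reads among them no longer matters. Some sharing with genes outside the sum remains, such as 25.3% of the windows of H2ac19 with H2af-ps2. In the treatment libraries most of the sum was Gm20634. The sum was 128 to 171 CPM in kidney treatment libraries against 50.3 to 66.7 CPM in control and 63.7 to 69.1 CPM in recovery. In liver it was 157 to 234 CPM against 27.9 to 49.7 CPM and 41.5 to 63.3 CPM. Neither organ showed any overlap between treatment and the other groups. The sum rose in kidney by 1.37 ± 0.10 (adjusted p = 1.6e-06) and in liver by 2.31 ± 0.22 (adjusted p = 0.0015) on the log2 scale in a fit added after seeing the data. The difference between these responses, -0.93 ± 0.26, was not called (adjusted p = 0.27). In recovery against control, the sum differed by 0.19 ± 0.11 in kidney and 0.32 ± 0.22 in liver, with adjusted p of 0.62 and 0.51. With the 2 liver libraries with kidney RNA left out, the liver sum differed by 2.30 ± 0.22 in treatment (adjusted p = 0.0037) and by 0.08 ± 0.33 in the 1 recovery library left (adjusted p = 0.99).

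**Figure D3:**
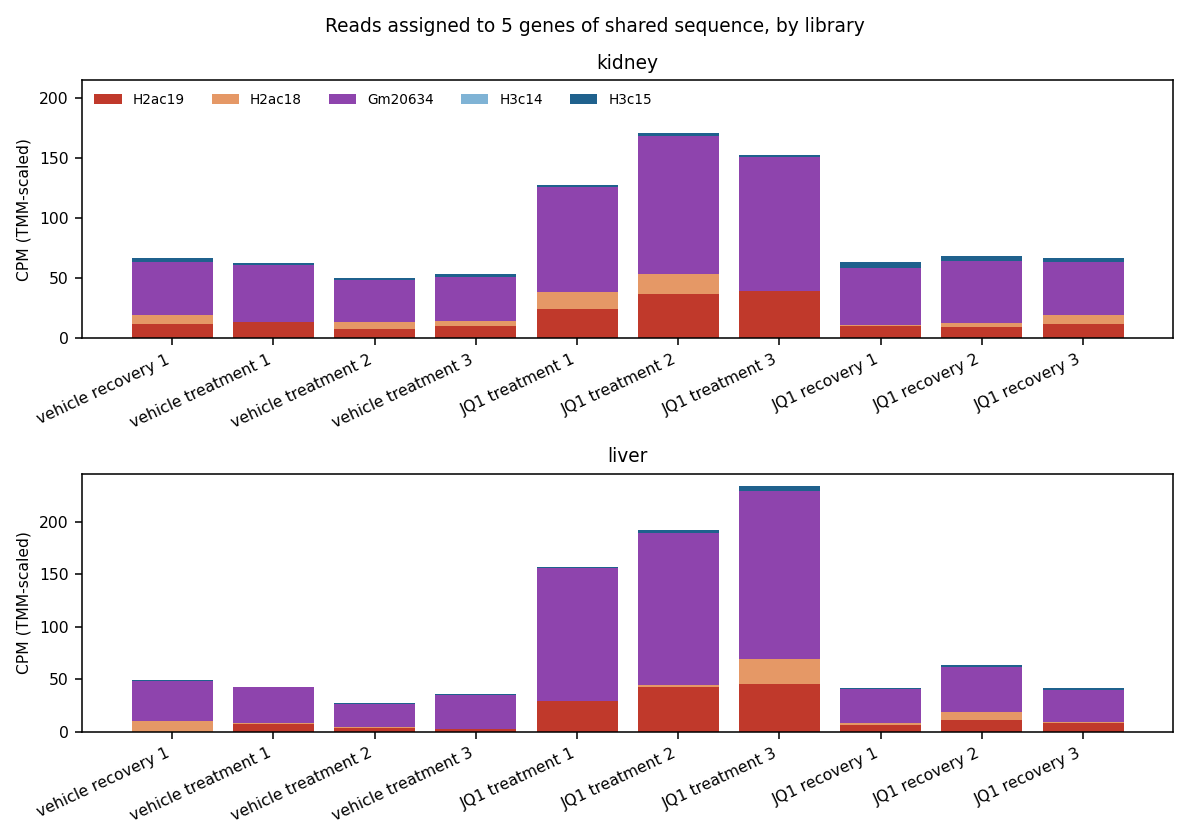
CPM stacked over 5 genes of the chromosome 3 cluster that share reads (H2ac19, H2ac18, Gm20634, H3c14 and H3c15), 1 bar per library, kidney on top and liver below. The share given to H2ac18 and H2ac19 changes from library to library, while the whole bar is tallest in the 3 JQ1 treatment libraries of each organ, at 128 to 171 CPM in kidney and 157 to 234 CPM in liver.

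H2bc4 made a smaller step at a much higher level. In kidney it measured 189.9, 207 and 208 CPM in treatment and 171, 150.3, 144 and 179 CPM in control. Recovery libraries held 185, 181 and 204 CPM, which overlapped treatment and lay above all 4 controls. The log2 fold change of treatment against control was 0.32 ± 0.08 (adjusted p = 0.025), and it was called under 10 of 15 alternatives. In liver the treatment libraries held 208, 239 and 279 CPM and the controls 131, 138, 141 and 159 CPM, a log2 fold change of 0.77 ± 0.12 (adjusted p = 0.013). The liver recovery libraries returned values of 145, 125 and 164 CPM, which overlapped the controls.

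H1f2 encodes a linker histone, which binds where DNA enters and leaves the nucleosome. In liver it measured 44.0, 49.9 and 60.1 CPM in treatment and 25.1, 27.1, 33.8 and 29.0 CPM in control, without overlap. It rose by 0.83 ± 0.13 on the log2 scale (adjusted p = 0.013). In kidney the treatment libraries held 64.4, 92.1 and 62.3 CPM against 61.8, 51.5, 66.2 and 64.7 CPM in control, which overlapped, with a log2 fold change of 0.26 ± 0.14 (adjusted p = 0.37). The difference between the organs was -0.57 ± 0.20 (adjusted p = 0.45).

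H2az1 was the only variant called in treatment against control, in liver. It measured 134.6, 145 and 137 CPM there in treatment and 89.2, 106, 97.3 and 101.04 CPM in control. The groups did not overlap, and the log2 fold change was 0.50 ± 0.10 (adjusted p = 0.041). In kidney it held 176, 191 and 173 CPM against 150.3, 133, 179.7 and 137 CPM, overlapping in vehicle treatment 3, with a log2 fold change of 0.26 ± 0.09 (adjusted p = 0.13). Against recovery it was called in kidney as well, at 0.34 ± 0.10 (adjusted p = 0.047). H3f3a, with 310 to 360.1 CPM in kidney treatment and 260 to 293 CPM in control, did not overlap there but missed the threshold (0.25 ± 0.07, adjusted p = 0.057). H3f3b, for the same protein, differed by 0.12 ± 0.07 in kidney and 0.03 ± 0.09 in liver (adjusted p = 0.38 and 0.96).

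H2aw was the member that fell in kidney. It measured 11.3, 15.2 and 12.3 CPM in treatment and 18.1, 17.1, 16.8 and 17.5 CPM in control, without overlap, and fell by 0.41 ± 0.11 on the log2 scale (adjusted p = 0.048). The call was thin: it was kept under 5 of 15 alternatives. H2aw lies inside Trim17 on the same strand and shares 30.6% of its windows with it, but Trim17 itself had at most 0.41 CPM in any kidney library. In liver H2aw was near 2 CPM, and the same comparison gave 0.12 ± 0.43 (adjusted p = 0.97).

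Counted without a test statistic, 7 of the 27 genes tested in kidney (H2ac19, H2bc4, H3f3a, H3f3b, H4c4, H4c8 and H4c9) had every treatment library above every control, a share of 25.9%, against 6.85% of all genes. In liver 11 of 23 did (H1f2, H1f3, H2ac19, H2ac6, H2az1, H2az2, H2bc4, H3c15, H3f3a, H4c8 and H4f16), a share of 47.8%, against 6.79% of all genes. Below every control were H2aw in kidney, where 8.31% of all genes were, and H2bc21, a cluster H2B gene, in liver, where 6.13% were. The H1f3 change in liver was large but short of the threshold (2.5 ± 0.58, adjusted p = 0.083). The variants H1f0 and H2ax moved little: H1f0 by 0.04 ± 0.09 in kidney and -0.08 ± 0.10 in liver, and H2ax, which marks broken DNA when phosphorylated, by 0.26 ± 0.20 and 0.24 ± 0.29. H2aj differed by 0.13 ± 0.10 and 0.49 ± 0.18, with adjusted p of 0.56 and 0.37, and H2az2 by 0.02 ± 0.08 and 0.15 ± 0.09. H1f10 was at 1.53 CPM or less in every kidney library.

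**Figure D4:**
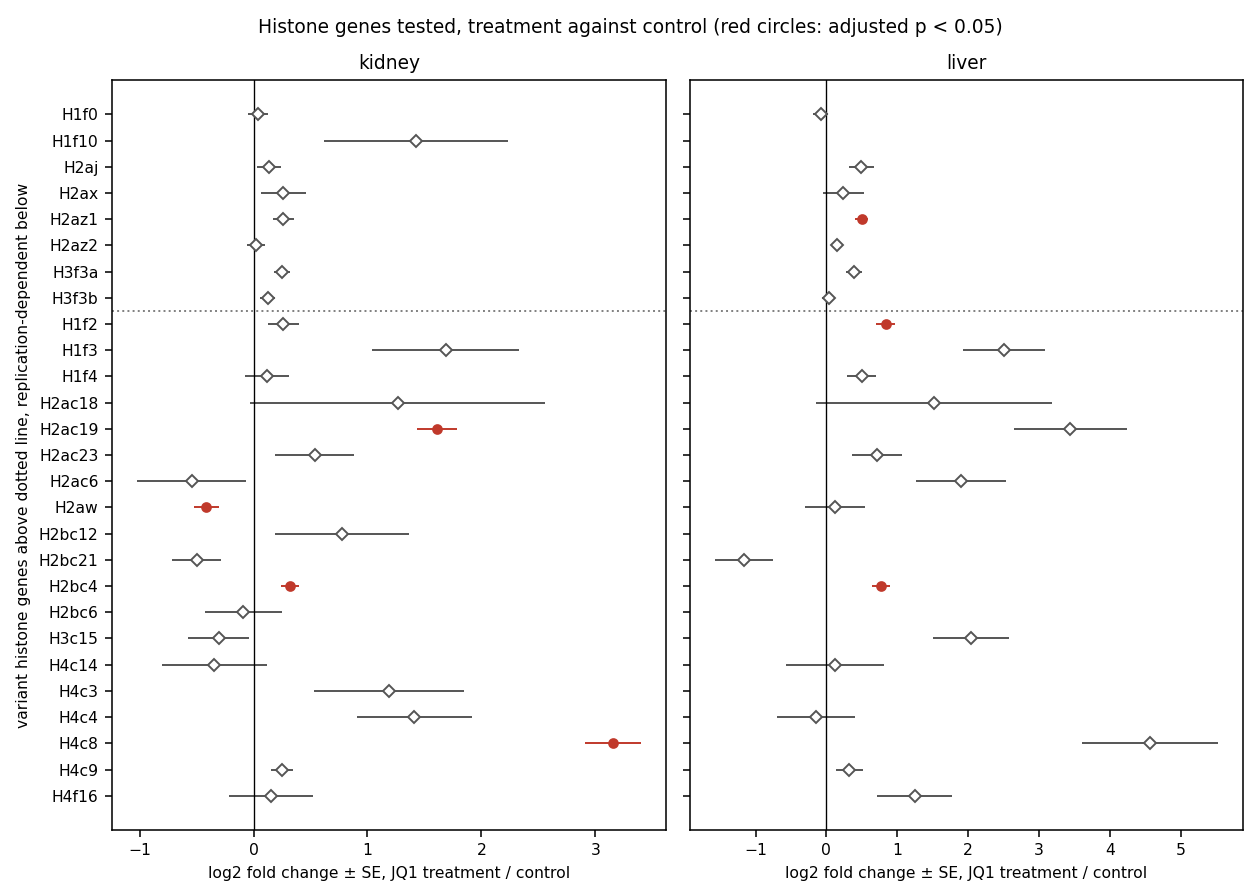
Log2 fold change ± SE of JQ1 treatment over control for each histone gene tested, kidney on the left and liver on the right, with variants above the dotted line and replication-dependent genes below. Red circles mark adjusted p under 0.05, which are H4c8, H2ac19, H2bc4 and H2aw in kidney and H2bc4, H1f2 and H2az1 in liver; most points of both organs lie to the right of 0.

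By class, the replication-dependent genes summed to 449 to 516 CPM in kidney treatment libraries, 307 to 345 CPM in control and 331 to 375 CPM in recovery. In liver the sums were 352 to 516 CPM, 199 to 244 CPM and 239 to 260.4 CPM. The liver recovery library with far less kidney RNA, JQ1 recovery 1, held 239 CPM, within the range of the controls. Treatment lay above both other groups in each organ, and it did so in TPM as well, at 587 ± 60.3 against 317 ± 17.4 TPM in kidney control and 350.1 ± 48.8 against 122 ± 14.7 TPM in liver control. Among the kidney families, H4 went from 31.3 ± 3.79 CPM in control to 93.1 ± 7.79 CPM in treatment. H2B went from 170.2 ± 16.6 to 209.6 ± 10.1 CPM and H2A from 42.3 ± 1.30 to 70.3 ± 8.89 CPM, none of them overlapping. In CPM, most of each gain was that of a gene already called, H4c8 in H4, H2bc4 in H2B and H2ac19 in H2A. The reads of H2ac19 cannot be told from those of H2ac18 and Gm20634, as given above. The order of these gains depended on the scale, since in TPM H2A stood at 72.8 ± 4.19 and 143 ± 17.5 and H2B at 138 ± 13.8 and 157 ± 9.54, with overlap for H2B. The cluster H1 and H3 genes overlapped, at 83.8 ± 8.70 and 98.8 ± 16.1 CPM for H1 and 2.42 ± 0.40 and 2.67 ± 0.38 CPM for H3.

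For the variants as a class, the reading in kidney depended on the scale. They summed there to 1092 ± 33.1 CPM in treatment and 974 ± 38.6 CPM in control, without overlap, but to 468 ± 31.4 TPM in control and 482 ± 35.1 TPM in treatment, with overlap. In liver the treatment libraries lay above the controls on both scales, at 660.3 to 729 against 569.8 to 606 CPM and 226 to 252 against 159 to 200.2 TPM. No test was run on these class sums. In bulk tissue, more cells making a histone RNA and more of that RNA per cell cannot be told apart.

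Other readings are given beside the cluster genes. The 30 genes of DNA replication and cell division summed to 257 to 350 CPM in kidney treatment libraries, 225 to 307 CPM in control and 214.9 to 255 CPM in recovery. In liver they summed to 158 to 169.7 CPM, above the 114 to 146 CPM of control and the 143 to 148 CPM of recovery. Of these, Ccne2, the cyclin that opens S phase, rose in kidney (1.30 ± 0.34, adjusted p = 0.034). Lig1, the ligase that joins lagging-strand fragments, rose there too (0.62 ± 0.16, adjusted p = 0.039), making 2 of 30 called. In kidney 28 of 30 lay above 0, with 9 at an unadjusted p under 0.05 by edgeR, though the sums of treatment and control overlapped. In liver 0 of 26 tested were called by edgeR and 0 by DESeq2, with 9 at an unadjusted p under 0.05 and 24 of 26 above 0. The proliferation genes Mki67 and Top2a gave 0.43 ± 0.41 and 0.34 ± 0.40 in kidney and 0.68 ± 0.64 and 0.56 ± 0.31 in liver, none called. RNAs that carry no poly(A) tail summed to 51.7 to 71.5 CPM in liver treatment libraries against 29.96 to 37.8 CPM in control, and to 38.1 to 87.5 against 36.2 to 41.8 CPM in kidney, where the 87.5 CPM was JQ1 treatment 1. Their part in the histone results was not tested. Without that kidney library, H4c8 and H2ac19 gave 3.24 ± 0.27 and 1.79 ± 0.14. Of the marker lists for blood cells, 3 of 6 red cell genes tested (Alas2, Hba-a2 and Hbb-bt) rose in kidney treatment libraries, and the lymphocyte gene Gzma fell by 2.85 ± 0.70. The 12 lymphocyte markers, most of them too low to test, summed to 1.295 to 1.756 CPM in kidney treatment libraries and 3.628 to 4.623 CPM in control. In liver they summed to 1.086 to 1.516 CPM and 2.897 to 5.355 CPM. Their bearing on the histone values was not tested. Of the 8 macrophage genes 7 lay above 0 in kidney, with a median log2 difference of 0.78, and JQ1 treatment 1 held the 512 CPM given above. The eighth, Csf1r, was the only one called by edgeR, as lower (-0.54 ± 0.13, adjusted p = 0.027), and DESeq2 called Csf1r and Lyz2.

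Genes that make or end histone RNA were compared as well. Of 27 genes for histone transcription and 3-prime processing, 0 of 26 tested in kidney and 0 of 27 in liver were called in treatment against control by edgeR or by DESeq2, with 4 and 3 at an unadjusted p under 0.05. Slbp, whose protein binds the stem-loop, differed by 0.02 ± 0.12 in kidney and 0.08 ± 0.16 in liver. Npat, a coactivator that sits at the histone clusters in S phase, differed by 0.33 ± 0.12 and 0.65 ± 0.19 (adjusted p = 0.17 and 0.20). It was not called, but its treatment libraries lay above every control in both organs. They held 17.6 to 19.1 against 11.3 to 16.8 CPM in kidney, and 8.22 to 12.1 against 5.16 to 6.96 CPM in liver. Of all genes, 6.85% in kidney and 6.79% in liver did so. Among 31 histone chaperones 1 was called in kidney, Npm3 at 0.37 ± 0.09 (adjusted p = 0.019), and 0 of 29 tested in liver, where 3 had an unadjusted p under 0.05 and DESeq2 called 0. In kidney DESeq2 called Npm3 and Nap1l1. Between treatment and recovery in kidney, Mblac1, a nuclease for histone RNA, was lower in treatment by 0.96 ± 0.23 (adjusted p = 0.015). The chaperones Atrx, Npm1 and Srcap were called higher there, 3 of 31 tested, where 2.41% of all genes were. Of the 30 replication and division genes, Lig1, Mcm4, Mcm7 and Rrm1 were called higher, with 27 above 0. Tut4, which adds uridines to RNA ends, was higher in liver treatment than in recovery by 0.69 ± 0.16 (adjusted p = 0.037). That recovery group includes the 2 libraries with kidney RNA, and Tut4 also differed between the control organs. Tut4 was not called in liver treatment against control.

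The recovery libraries were compared with the same controls to ask what remained 6 weeks after the last dose, so both comparisons share their controls. In kidney 0 of 27 histone genes were called by edgeR, with 6 at an unadjusted p under 0.05 and 0 called by DESeq2. Of all genes 0.00583% were called there. In liver 0 of 23 were called by edgeR, again with 6 at an unadjusted p under 0.05 and 0 by DESeq2, where 0.0343% of all genes were called and 0.0137% were higher. H4c8 in kidney differed from control by -0.02 ± 0.28 and H2ac19 by -0.01 ± 0.19 on the log2 scale. In liver H4c8 differed by 2.47 ± 0.98 (adjusted p = 0.27) over all libraries, a value that rested on the libraries with kidney RNA. Without them the remaining recovery library, assumed to vary like the other groups, differed from control by -1.13 ± 0.68 (adjusted p = 0.94), so the direction turned. In that setting 0 histone genes were called in liver.

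A few members in kidney did not overlap the controls after recovery. H2bc4, H4c9 and H3c15 lay above all 4 controls and H1f0 and H4c14 below, 11.1% and 7.41% of the genes tested, against 5.26% and 5.2% of all genes. H3c15, a cluster H3 gene, measured 4.70, 4.75 and 3.37 CPM in recovery and 2.21, 1.56, 2.09 and 2.89 CPM in control, a log2 difference of 0.96 ± 0.25 (adjusted p = 0.25). It measured 1.74, 1.91 and 1.65 CPM in treatment, below all 3 recovery libraries, and the log2 difference of treatment from recovery was -1.27 ± 0.27 (adjusted p = 0.0075). It shares 62.6% of its windows with other genes. In liver, H1f4 and H3c15 lay above every control and H2az2 below, 8.7% and 4.35% of the 23 genes tested. Of all genes, 5.45% and 6.13% did. Of the 3 liver recovery libraries counted, 2 held kidney RNA. H4c9, an H4 gene, gave 24.6, 28.7 and 25.7 CPM in recovery and 21.7, 17.8, 20.7 and 21.7 CPM in control (0.36 ± 0.10, adjusted p = 0.26).

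Treatment against recovery gave 4 called genes in kidney, where 7.31% of all genes were called, 2.41% higher and 4.91% lower. H4c8 (3.18 ± 0.27), H2ac19 (1.62 ± 0.19) and H2az1 were higher in treatment and H3c15 lower. In liver 2 were called, where 2.29% of all genes were called, 1.31% higher and 0.989% lower. Both were higher in treatment, H2bc4 (0.74 ± 0.13, adjusted p = 0.015) and H2az1 (0.44 ± 0.10, adjusted p = 0.040). Without the 2 liver libraries with kidney RNA, which leaves 1 recovery library assumed to vary like the other groups, 2 were called as well, H2bc4 and H4c8 (5.68 ± 0.58, adjusted p = 0.0013). Without overlap, 8 of 23 genes were higher in liver treatment than in recovery, a share of 34.8% where 11.3% of all genes were. H2bc21 was lower, a share of 4.35% where 9.96% of all genes were. Both counts include the 2 recovery libraries with kidney RNA. In the comparison of liver treatment with control, leaving out the same libraries called 6 genes, H2bc4, H1f2, H2az1, H3f3a (0.38 ± 0.09, adjusted p = 0.022), H4c8 and H3c15 (2.02 ± 0.51, adjusted p = 0.045). The share of all genes called under this setting is not given here.

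Whether the organs differed in their response was tested in 1 fit over all 20 libraries. None of the 29 histone genes tested was called by edgeR, with 6 at an unadjusted p under 0.05, where 0.169% of 17710 genes were called. DESeq2 called 1, H3c15 at -2.35 ± 0.61 (adjusted p = 0.021). H3c15 measured 1.16, 3.35 and 4.52 CPM in liver treatment libraries against 0.152 to 1.02 CPM in control, without overlap, while in kidney treatment and control overlapped. The response of H2ac19 differed by -1.83 ± 0.76 (adjusted p = 0.57) and that of H2bc4 by -0.44 ± 0.15 (adjusted p = 0.45), kidney minus liver.

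Between the organs at rest, 7 of the 29 genes differed in the vehicle libraries, a share of 24.1% where 61.8% of all genes were called. H2aw was highest in kidney relative to liver, at 13.3 ± 0.38 against 2.45 ± 1.11 CPM scaled over both organs, a log2 difference of 2.42 ± 0.27. H2bc6 (1.44 ± 0.51), H4c9 (1.01 ± 0.13) and H2aj (0.85 ± 0.14) were also higher in kidney. Lower there were H4c4 at -1.72 ± 0.50, H2bc4 at -0.61 ± 0.10 and H2az2 at -0.40 ± 0.07. H4c8 differed by 1.61 ± 0.72 (adjusted p = 0.063). H1f0 stood at 90.7 ± 3.33 CPM in kidney and 90.1 ± 5.10 CPM in liver, a log2 difference of 0.01 ± 0.09. The direction of such differences depended on the scale. In mean TPM over all 10 libraries of each organ, H2bc4 was higher in kidney, at 144 against 92.9 in liver. H2az2, at 44.4 against 23.3 TPM, and H1f0, at 46.0 against 17.8 TPM, were higher in kidney as well.

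Promoters are shown because cluster genes of the H2A, H2B and H4 families rose in the same comparison. RefSeq gave 89 of the 99 genes a promoter, taken as 250 bases before to 50 after the annotated start, and 27025 genes in all. Printed below are the 2 genes of largest response in kidney and the H4 gene H4c9, which was not called. They are on build GRCm38.p6 and 5′ to 3′ on the gene's strand. Reads given to H2ac19 also match H2ac18 and Gm20634, so its promoter may not be that of the gene that rose. Capitals mark matches to the TATA box TATAAA, the pentamer CCAAT, the octamer ATTTGCAT and the H4 site GGTCCG. All were searched on both strands, so that ATTGG stands for the pentamer on the other strand.
H4c8 (chr13:23530794-23531093, + strand): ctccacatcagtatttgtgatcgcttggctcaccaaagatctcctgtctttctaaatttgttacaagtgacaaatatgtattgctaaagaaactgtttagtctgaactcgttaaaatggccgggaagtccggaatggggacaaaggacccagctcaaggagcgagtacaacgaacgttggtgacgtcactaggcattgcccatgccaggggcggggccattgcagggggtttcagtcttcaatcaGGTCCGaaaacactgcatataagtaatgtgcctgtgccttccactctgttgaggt
H2ac19 (chr3:96240325-96240624, - strand): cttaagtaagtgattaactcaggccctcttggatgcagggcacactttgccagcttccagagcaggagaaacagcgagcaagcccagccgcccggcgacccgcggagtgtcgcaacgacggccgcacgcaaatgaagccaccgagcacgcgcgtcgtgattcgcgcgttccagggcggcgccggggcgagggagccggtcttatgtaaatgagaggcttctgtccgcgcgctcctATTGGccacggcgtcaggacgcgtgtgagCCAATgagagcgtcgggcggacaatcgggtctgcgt
H4c9 (chr13:22041313-22041612, - strand): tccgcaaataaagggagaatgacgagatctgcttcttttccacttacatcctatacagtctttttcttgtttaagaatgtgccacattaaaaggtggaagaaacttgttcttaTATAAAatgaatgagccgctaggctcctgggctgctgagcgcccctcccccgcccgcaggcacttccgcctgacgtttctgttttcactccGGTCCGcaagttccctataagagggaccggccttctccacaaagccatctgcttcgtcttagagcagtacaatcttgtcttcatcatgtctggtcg
H4c8 held GGTCCG starting 5 bases before the annotated start, and H4c9 held it 46 bases before and TATAAA 137 bases before. H2ac19 held CCAAT on both strands and none of the other motifs. Annotated starts can lie off the true start, and a match here is a run of letters, not a site.

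GGTCCG was found in 11 of 12 promoters of replication-dependent H4 genes, in 1 of 15 of H2B, in 1 of 10 of H3 and in none of the 6 of H1 or 18 of H2A. Of all 27025 promoters 8.39% held it. CCAAT had the opposite spread, being in every promoter found for cluster H1, H2A, H2B and H3 genes (6, 18, 15 and 10) but in 3 of 12 of H4, against 37.9% of all. TATAAA was in 4 of 6, 11 of 18, 8 of 15, 4 of 10 and 8 of 12 promoters of H1, H2A, H2B, H3 and H4, against 14.2% of all. ATTTGCAT was in 7 of 18 of H2A and 6 of 15 of H2B and in none of the other 3 families, against 1.75% of all. Both the H4 gene that rose and one that was not called, H4c8 and H4c9, held GGTCCG.

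**Figure D5:**
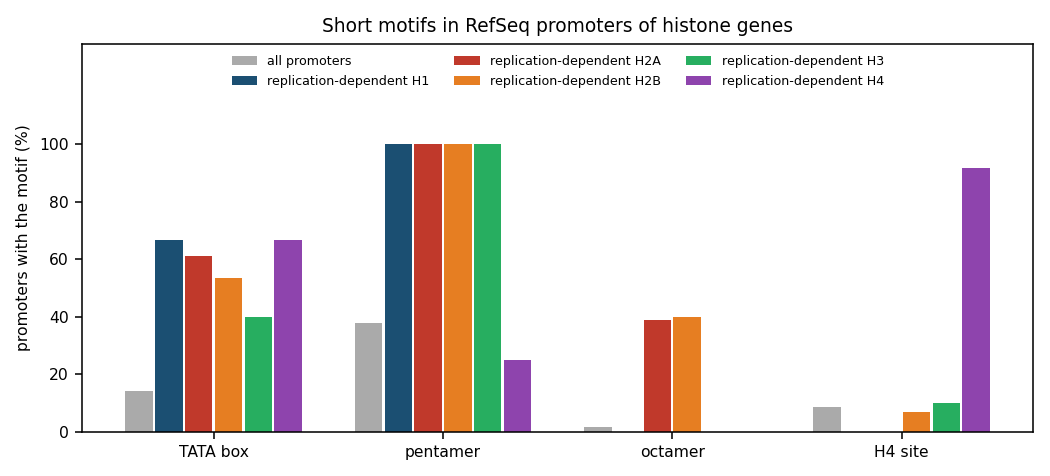
Percent of RefSeq promoters of replication-dependent H1, H2A, H2B, H3 and H4 genes, and of all 27025 promoters (grey), that hold each motif, where the pentamer is CCAAT, the octamer ATTTGCAT and the H4 site GGTCCG. The H4 site stands at 91.7% in H4 promoters and the pentamer at 100% in the other families.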

How the data were processed

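Bulk RNA of kidney and liver was sequenced after poly(A) selection as single-end reads of 75 bases. According to its methods and to the processing notes of the submitters, the authors trimmed reads with fastp 0.20.1 and quantified transcripts with Salmon 1.10.0. The deposited files hold an estimated count and a TPM for each of 147833 transcripts. TPM values were summed per gene as deposited by the authors, and the estimated counts were added up over the transcripts of a gene and rounded. Salmon divides reads among matching transcripts by a model, so near-identical histone genes are uncertain one by one.

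Genes were tested with edgeR 4.0.16 (TMM scaling, filterByExpr at min.count 10 and min.total.count 15, robust quasi-likelihood test), in 1 fit per organ over its 10 libraries and 1 fit over all 20 for both organs. A gene was called at an adjusted p under 0.05 (Benjamini-Hochberg over all genes tested). CPM values include TMM factors from the fit within the organ. The alternatives were DESeq2 1.42.0, the test the study used, its size factors in edgeR, no filter, length-scaled TPM counts, the groups compared alone, controls of the same age, the replicate number as a block, and each library left out. Summing genes that share at least 50% of the 75-base windows of a histone transcript with at least 60 reads, and leaving out 2 liver libraries, alone and together, were chosen after seeing the data. On simulated data, for kidney treatment against control, 84% of 2-fold and 100% of 4-fold changes were recovered, and for liver 60% and 96%. Unchanged genes gave 10 false calls in kidney and 8 in liver. The changed genes were drawn only from genes with counts well above the filter, so these shares do not cover histone genes of low count.

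The genes and lists were chosen with earlier results of these data known. The text names histone genes called between groups of an organ, the 10 of largest difference between organs and the 8 of highest mean TPM per organ. Several were chosen by name, and some annotated neighbours and some of the called genes of related lists are named too. H1f3, H4c4, H4c14, H2ac6, H4f16, H2bc21 and H2ac18 were named after their values were seen. Transcript sequences came from GENCODE M21, where 97 of 99 transcripts had the length given in the files, and promoters from RefSeq (GRCm38.p6). The labels do not say whether a kidney and a liver library came from 1 animal, and a library was counted as 1 animal within its organ. The vehicle numbers and the recovery time follow the labels, from which a supplementary legend of the study differs.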

Additional observations from a re-analysis of the deposited data

Results flagged for a closer look

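Among 34 control groups of 4 libraries, each a named histone gene in 1 organ, 2 held a library that lay far from the other 3 by Dixon's test at the 95% level, and chance gives about 1 in 20. H3f3b measured 262 CPM in kidney vehicle treatment 2 against a nearest other value of 280 CPM, a gap of 0.893 of the range. H1f10 measured 0.174 CPM in liver vehicle recovery 1 and 0 in the other 3 liver controls, a level of a few reads.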

How the results depend on the processing

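No called value changed sign under any alternative. Values not called over all libraries did so in recovery against control, among them H4c8, which ran from -1.13 (libraries with kidney RNA left out) to 2.99 in liver and from -0.19 to 0.67 in kidney, H2ac19 from -0.13 to 0.10 in kidney and H2bc4 from -0.16 to 0.11 in liver. H4c8 and H2ac19 were called in kidney treatment against control under each of their 15 and 14 alternatives; H2bc4 was called there under 10 of 15 and H2aw under 5 of 15. In liver H1f2 was called under 13 of 16, H2bc4 under 11 of 16, H2az1 under 6 of 16, H4c8 under 3 of 16 and H2ac19 under 2 of 15. Counts of called histone genes moved as follows, and the causes were not tested. The share of all genes called under each setting is not given, so the counts do not show whether histone genes alone moved. In kidney treatment against control, length-scaled counts gave 2. In kidney treatment against recovery, no filter gave 7. In liver treatment against control, DESeq2 gave 6, the compared groups alone 7 and leaving out the libraries with kidney RNA 6. In liver treatment against recovery, length-scaled counts, the replicate block and the compared groups alone each gave 1, and DESeq2 4. For the organ difference DESeq2 gave 1, and between the control organs no filter gave 14, DESeq2 14 and leaving out those libraries 12.

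With 1 library left out at a time, counts ran from 2 to 5 in kidney treatment against control (2 without JQ1 treatment 3 or vehicle treatment 2), 0 to 1 in kidney recovery against control (H3c15, without the vehicle recovery library), 3 to 4 in kidney treatment against recovery, 0 to 3 in liver treatment against control (0 without JQ1 treatment 2, JQ1 treatment 3 or vehicle treatment 1, and 1 without vehicle treatment 2 or 3), 0 to 2 in liver recovery against control (H4c8 and H2aw, without JQ1 recovery 1), 0 to 7 in liver treatment against recovery (7 without JQ1 recovery 1, 4 without JQ1 recovery 2, 1 without JQ1 recovery 3 or JQ1 treatment 1, 0 without JQ1 treatment 2 or 3), 0 to 1 for the organ difference and 6 to 10 between the control organs. Within an organ, deviations of same-numbered libraries of different groups correlated at -0.20 to 0.17 over 18 pairs, with 1 above 0.1. Kidney and liver libraries of the same number were not compared in this way, so pairing between the organs was not tested. With the replicate block 3 genes were called in kidney treatment against control and 4 in kidney treatment against recovery. The block gave 2 in liver treatment against control and 8 between the control organs. Liver libraries were the shallower, and fewer simulated 2-fold changes were recovered there.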
